A study of Mus musculus with 8 samples.

Results

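The early response of mouse dendritic cells to an *Echinacea purpurea* extract was read from 4 of the 8 arrays of the series. They are the 2 arrays of bone marrow-derived dendritic cells (BMDCs) given [BF/S+L/Ep], the butanol fraction of a stem and leaf extract of the plant, for 4 h at a dose of 75 μg/mL, and the 2 arrays of BMDCs kept for the same 4 h with 0.1% DMSO, the vehicle. All the cells came from marrow of female BALB/c mice grown for 9 days with GM-CSF, and the non-adherent cells were taken as immature DCs. Each array is an Affymetrix mouse whole-genome array hybridized with biotin-labelled cRNA made from total RNA. The other 4 arrays, of the same treatments at 12 h, entered the model for the spread between replicates and are set beside the 4 h values where stated. Each level below is a MAS5 signal, an arbitrary brightness scaled by the authors to the same trimmed mean on every array, and each change is a log2 fold change, the mean log2 signal of the 2 [BF/S+L/Ep] arrays minus that of the 2 DMSO arrays. The extract is a mixture, and the culture holds more than 1 cell type. Differences in RNA per cell and in the make-up of the culture cannot be told apart in such samples.

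Several receptor systems of dendritic cells act within hours. The aryl hydrocarbon receptor (AhR) is a ligand-activated transcription factor that binds many planar aromatic molecules, and it is known for switching on *Cyp1a1*, *Cyp1b1*, *Tiparp* and its own repressor *Ahrr*. NF-κB drives the rapid transcription of chemokines that act on the neutrophil receptor CXCR2, such as *Cxcl1*, *Cxcl2* and *Cxcl3*, and NRF2 drives genes of glutathione and thioredoxin metabolism. Maturation of a dendritic cell raises the costimulatory molecules CD40, CD80 and CD86 and the homing receptor CCR7.

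The 2 genes that passed the test at 4 h were *Ahrr* and *Cxcl3*, and their promoters are shown with those of related genes of the same function, so that the sequences of each group can be set side by side. The sequences are the 250 bases before the start of transcription in RefSeq annotation of GRCm38.p6, written 5′ to 3′ on the strand of the gene. In the first group the capitals mark the letters GCGTG, the core of the site that AhR binds, on either strand, so that CACGC is the same match read from the other strand.

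Ahrr (chr13:74292332-74292581, minus strand): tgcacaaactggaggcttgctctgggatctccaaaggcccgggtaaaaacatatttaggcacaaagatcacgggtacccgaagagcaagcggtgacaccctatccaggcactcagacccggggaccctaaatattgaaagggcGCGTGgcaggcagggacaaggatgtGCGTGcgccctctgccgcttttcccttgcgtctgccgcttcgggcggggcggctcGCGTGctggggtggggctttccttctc
Tiparp (chr3:65528197-65528446, plus strand): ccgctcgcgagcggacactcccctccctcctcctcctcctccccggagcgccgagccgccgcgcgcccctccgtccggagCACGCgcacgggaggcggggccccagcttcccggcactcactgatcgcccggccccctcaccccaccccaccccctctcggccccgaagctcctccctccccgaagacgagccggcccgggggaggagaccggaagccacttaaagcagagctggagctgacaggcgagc
Cyp1b1 (chr17:79715062-79715311, minus strand): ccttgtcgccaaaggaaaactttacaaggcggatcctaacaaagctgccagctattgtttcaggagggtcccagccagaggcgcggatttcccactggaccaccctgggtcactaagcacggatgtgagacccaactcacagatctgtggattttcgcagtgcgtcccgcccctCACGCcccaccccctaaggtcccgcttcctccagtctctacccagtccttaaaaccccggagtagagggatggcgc

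The window of *Ahrr* held 3 matches, which began 107, 82 and 27 bases before the start, and those of *Tiparp* and *Cyp1b1* held 1 each. The window of *Nqo1*, also of the AhR group, held 0. Of the 32841 promoters of this length searched, 28.2% held at least 1 match and 2.77% held 3 or more. A match is a run of letters and was not measured as a bound site. In the second group the capitals mark the NF-κB consensus, a site of 10 bases that was searched on both strands.

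Cxcl3 (chr5:90785851-90786100, plus strand): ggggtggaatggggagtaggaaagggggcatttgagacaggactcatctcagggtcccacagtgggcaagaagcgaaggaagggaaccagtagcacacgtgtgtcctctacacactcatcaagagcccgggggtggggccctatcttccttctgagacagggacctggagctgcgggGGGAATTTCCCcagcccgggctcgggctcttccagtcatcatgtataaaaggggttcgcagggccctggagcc
Cxcl2 (chr5:90903649-90903898, plus strand): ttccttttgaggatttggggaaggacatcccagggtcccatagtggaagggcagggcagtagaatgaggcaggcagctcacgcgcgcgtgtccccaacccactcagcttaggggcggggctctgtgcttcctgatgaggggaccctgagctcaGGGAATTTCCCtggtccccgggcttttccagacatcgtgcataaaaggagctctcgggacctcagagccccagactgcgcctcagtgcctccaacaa
Cxcl1 (chr5:90890995-90891244, plus strand): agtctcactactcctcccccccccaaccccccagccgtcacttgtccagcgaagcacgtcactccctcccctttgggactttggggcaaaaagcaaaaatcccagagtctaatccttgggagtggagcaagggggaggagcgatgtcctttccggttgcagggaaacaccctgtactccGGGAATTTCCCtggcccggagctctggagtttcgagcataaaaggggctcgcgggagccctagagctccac

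The consensus matched on both strands in each of these 3 windows, offset by 1 base, so the capitals run over 11 letters, and these letters are the same in all 3. The match on the plus strand began 73 bases before the start in *Cxcl3*, 97 in *Cxcl2* and 71 in *Cxcl1*. In all, 3.9% of the promoters held the consensus. The window of *Ahrr* also held 1 such match, which began 15 bases before the start, and the window of *Cxcl2* held 2 matches to GCGTG. Neither run of letters was found in the windows of *Nqo1*, *Ppbp*, *Acod1* and *Serpinb2*.

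*Ahrr*, which encodes the repressor that limits AhR signalling, read 731 and 775 on the DMSO arrays and 1745 and 1773 on the [BF/S+L/Ep] arrays. Both treated arrays lay well above both controls, and replicates of either group differed by far less than the groups did. The signal rose from 753 ± 31.5 to 1759 ± 20.2 (mean ± SD, n = 2 arrays), which is a log2 fold change of 1.23 (standard error 0.13, 95% interval 0.948 to 1.501, adjusted p = 0.0133 from limma over 45037 probe sets). *Cxcl3*, which encodes a chemokine that attracts neutrophils through CXCR2, read 1424 and 1462 with DMSO and 3420 and 3378 with [BF/S+L/Ep]. It rose from 1443 ± 26.7 to 3399 ± 29.7 (mean ± SD, n = 2 arrays), a log2 fold change of 1.24 (standard error 0.14, 95% interval 0.94 to 1.53, adjusted p = 0.0133 from limma). Both calls rested on all 4 arrays and on the model. Without the intensity trend both were lost (adjusted p = 0.335 for *Ahrr* and 0.439 for *Cxcl3* in limma), *Cxcl3* was lost with an offset of 50 (0.0564), and *Ahrr* with the arrays of 4 h alone (0.0536). With 1 of the control arrays left out, the first or the second, the adjusted p from limma was 0.222 or 0.0833 for *Ahrr* and 0.222 or 0.167 for *Cxcl3*. With the first or the second treated array left out it was 0.146 or 0.0813 for both genes. In the fits with 1 of these arrays left out, the log2 fold change stayed between 1.18 and 1.27 for *Ahrr* and between 1.217 and 1.255 for *Cxcl3*.

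These were 0.00444% of the probe sets tested as higher, and 0% passed as lower. Of the 45037 probe sets tested, 1120 were higher and 1118 lower at an unadjusted p under 0.05. Counts of about this size would arise at that threshold with no change in any gene. With 2 arrays against 2, an exact two-sided permutation test of a single gene cannot go below p = 0.333, so every p given here comes from the model fitted across all probe sets. Where a p did not pass, the values are given as measured, with no claim of a change.

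**Figure D1:**
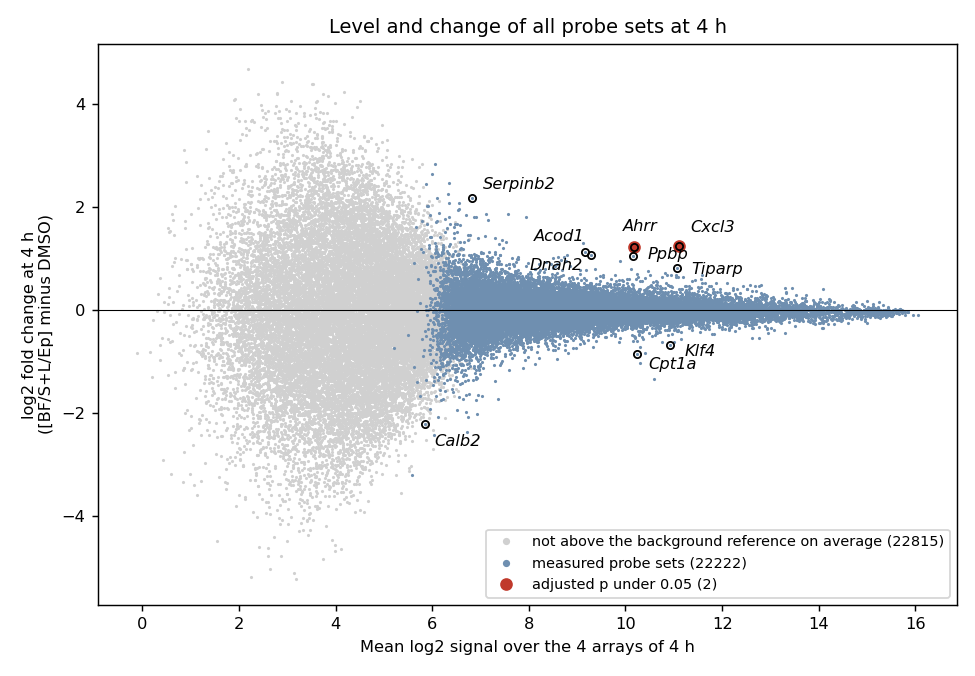
Each point is 1 probe set, placed by its mean log2 signal over the 4 arrays of 4 h (horizontal axis) and by its log2 fold change at 4 h, [BF/S+L/Ep] minus DMSO (vertical axis). The 22222 measured probe sets are blue, the 22815 others grey, and the 2 that passed the test, Ahrr and Cxcl3, red; the spread of fold changes is widest among the grey probe sets of low signal.

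The scale of the response can be read from the genes called measured, whose brightest probe set had a mean log2 signal over the 8 arrays above a background reference. The reference of an array was the 95th percentile of its signals on 83 probe sets of chemosensory receptor genes (olfactory, vomeronasal or taste), which are not known from these cells. Among the 10463 measured genes the median log2 fold change at 4 h was -0.01, and 90% of the genes lay between -0.40 and 0.37. The value was positive in 47.1% of them, which is the background for counts of sign. Only 46 measured genes had a log2 fold change of 1 or more and 44 of -1 or less. Higher genes with an unadjusted p under 0.05 made up 2.57% of the measured genes and lower genes 2.18%, and the arrays of the 2 groups did not overlap in 15.7% (treated above control) and 17.5% (treated below control). The shares by p and by overlap are near those that would arise with no change in any gene. They are the background for the counts that follow.

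The AhR group had a median log2 fold change of 0.46 over its 7 measured genes, of 14 listed, and 5 of the 7 were higher with an unadjusted p under 0.05. These 5 were *Ahrr*, *Tiparp*, *Cyp1b1*, *Nqo1* and *Nfe2l2*, the gene of NRF2, and the last 2 were counted in the NRF2 group as well. *Tiparp*, which encodes a poly(ADP-ribose) polymerase that is a classical AhR target and feedback inhibitor, read 1649 and 1587 with DMSO and 2948 and 2714 with [BF/S+L/Ep]. The treated arrays were above the controls on each of its 3 probe sets, with log2 fold changes of 0.81, 0.94 and 1.29, and the first, the brightest, missed the threshold (adjusted p = 0.055 from limma). *Cyp1b1*, which encodes a cytochrome P450 that oxidizes aromatic compounds and steroids, read 38.8 and 65.1 with DMSO, both under the background reference, and 171 and 138 with [BF/S+L/Ep]. That is at least 1.63-fold higher, and the adjusted p was 0.969. *Nqo1*, which encodes a quinone reductase under both AhR and NRF2, read 456 and 431 against 590 and 635 (log2 fold change 0.46, adjusted p = 0.988). The receptor itself, *Ahr*, read 1112 and 1088 against 1030 and 891, and its partner *Arnt* overlapped between the groups. *Cyp1a1*, the P450 gene most often used as an AhR readout, was under the reference on all 4 arrays, so no fold is given. At 12 h the same 7 genes had a median of 0.44.

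The chemokines were listed by receptor class. Of the 5 measured genes of the CXCR2 group, all 5 had a positive log2 fold change, with a median of 0.76, and 3 had an unadjusted p under 0.05. Beside *Cxcl3*, these were *Ppbp*, whose product is a CXCR2 ligand stored in platelets, and *Cxcl2*, another neutrophil attractant. *Ppbp* read 639 and 980 with DMSO and 1694 and 1592 with [BF/S+L/Ep] (log2 fold change 1.05, standard error 0.16, adjusted p = 0.116). Its 2 control arrays lay far apart, and the log2 fold change was 0.74 without DMSO replicate 1 and 1.36 without DMSO replicate 2. With the first or the second treated array left out it was 1.01 or 1.10. *Cxcl2* read 1032 and 1156 against 1912 and 1788, with a log2 fold change of 0.76 (adjusted p = 0.118). *Cxcl1* depended on the probe set. On the brightest it was at 422 and 408 with DMSO and 483 and 400 with [BF/S+L/Ep], and its groups overlapped (log2 fold change 0.08, 95% interval -0.31 to 0.47). On its 2 dimmer measured probe sets both treated arrays lay above both controls, at 177 and 139 against 231 and 200 and at 204 and 177 against 254 and 242 (log2 fold changes 0.46 and 0.38, both with an adjusted p of 0.997 from limma). *Pf4*, a chemokine of platelets and macrophages, was counted in this group though it is not a CXCR2 ligand. It overlapped too, at 11816 and 13718 against 16608 and 12270. *Cxcl5*, at 4.8 on both control arrays and 35.8 and 48.0 on the treated arrays, stayed under the reference on all 4, as did *Cxcr2*.

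Among the other CXC, C and CX3C chemokines, 4 of 7 measured genes were higher with an unadjusted p under 0.05, and the median was 0.31. *Cxcl13*, which guides B cells into follicles, read 328 and 319 with DMSO and 547 and 473 with [BF/S+L/Ep] (log2 fold change 0.65, adjusted p = 0.462). Its other probe set had 0.28 with overlapping groups. *Cxcl16*, the ligand of CXCR6 and a scavenger receptor, read 11991 and 12652 against 14375 and 15938, and *Cxcl14* read 1486 and 1719 against 2051 and 1915. On the dimmer probe set of *Cxcl14* the groups overlapped (0.50). *Cxcl11*, an interferon-induced ligand of CXCR3, was under the reference with DMSO and read 91.0 and 123 after treatment, at least 1.12-fold higher (adjusted p = 0.969). The 11 measured CC chemokines had a median log2 fold change of 0.00, with 0 higher and 1 lower at an unadjusted p under 0.05. The lower gene was *Ccl3*, an inflammatory chemokine of macrophages, at 1972 and 2834 with DMSO and 2069 and 1606 with [BF/S+L/Ep], with overlapping groups. *Ccl4*, its neighbour by sequence and function, read 475 and 879 against 373 and 529 (log2 fold change -0.54, adjusted p = 0.997), also with overlap. The difference between the CXC and CC groups was not tested.

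NF-κB subunits and their feedback genes had small positive values. Of 24 measured genes, 18 had a positive log2 fold change, the median was 0.10, and 5 were higher and 0 lower with an unadjusted p under 0.05. *Tnfaip2*, a TNF-induced gene of membrane trafficking, read 1742 and 1769 with DMSO and 2605 and 2849 with [BF/S+L/Ep] on 1 probe set (log2 fold change 0.63, adjusted p = 0.182). On its brighter probe set it read 5442 and 5680 against 7947 and 7489 (0.47, adjusted p = 0.372), so both put the treated arrays above the controls. *Nfkbiz*, an atypical IκB that many secondary NF-κB targets need, read 322 and 314 against 445 and 483 (0.55, adjusted p = 0.918), while its 2 dimmer measured probe sets had negative values of -0.07 and -1.10 and overlapping groups. *Nfkbia*, the best known feedback inhibitor, overlapped between the groups at 28256 and 29109 against 31040 and 25062.

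The inflammatory cytokines did not move as 1 group. Of 14 measured genes, 2 were higher and 1 lower with an unadjusted p under 0.05, and the median was 0.06. *Il1rn*, which encodes the antagonist of the IL-1 receptor, read 3142 and 3160 with DMSO and 3878 and 5252 with [BF/S+L/Ep] (log2 fold change 0.52, adjusted p = 0.861). *Tgfb1*, a regulatory cytokine, read 5723 and 6067 against 7122 and 8061 (0.36, adjusted p = 0.928). *Il1b* itself lay on the other side, at 6797 and 7578 against 6073 and 5750 (-0.28, adjusted p = 0.988). *Tnf* and *Il6* overlapped between the groups.

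Interferon-stimulated genes had a median log2 fold change of 0.15, with 24 of 29 measured genes above 0 and 4 higher with an unadjusted p under 0.05. *Usp18*, which removes the ISG15 modifier and restrains interferon signalling, read 1767 and 1641 with DMSO and 2533 and 2758 with [BF/S+L/Ep] (log2 fold change 0.64, standard error 0.11, adjusted p = 0.203). *Rsad2*, which encodes the antiviral enzyme viperin, read 1421 and 1675 against 2525 and 2422 (0.68, adjusted p = 0.296), and the treated arrays were above the controls on each of its 3 probe sets. *Dhx58*, a regulator of RIG-I-like receptors, read 284 and 269 against 491 and 506 (0.85, adjusted p = 0.508). Its 2 dimmer probe sets overlapped between the groups.

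Of 32 measured NRF2, glutathione and antioxidant genes, 6 were higher and 0 lower with an unadjusted p under 0.05, and the median was 0.07. *Nqo1* and *Nfe2l2* were among these 6, so this count and that of the AhR group share genes. *Gclc*, the catalytic subunit of the rate-limiting enzyme of glutathione synthesis, read 1255 and 1272 with DMSO and 1741 and 1959 with [BF/S+L/Ep] (log2 fold change 0.55, adjusted p = 0.565), and 0.085 with overlapping groups on its other probe set. *Txnrd1*, a thioredoxin reductase, read 5642 and 6291 against 8487 and 7933, with log2 fold changes of 0.46, 0.61 and 0.77 on its 3 probe sets. *Srxn1*, which repairs oxidized peroxiredoxins, read 3026 and 3344 against 4052 and 3974. Its dimmer probe sets had 0.18 with overlap, and 0.48 and 0.58 without. *Acod1*, which encodes the mitochondrial enzyme that makes itaconate in activated myeloid cells, had the third smallest p of all higher genes. It read 443 and 339 with DMSO and 899 and 790 with [BF/S+L/Ep], a log2 fold change of 1.12 (standard error 0.15, 95% interval 0.80 to 1.45), and missed the threshold (adjusted p = 0.055 from limma). *Gch1*, the first enzyme of the tetrahydrobiopterin cofactor of nitric oxide synthase, read 1318 and 1132 against 1639 and 1517. These were the 2 genes of 9 measured in the itaconate, nitric oxide and arginine group with an unadjusted p under 0.05, and the group's median was 0.23.

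**Figure D2:**
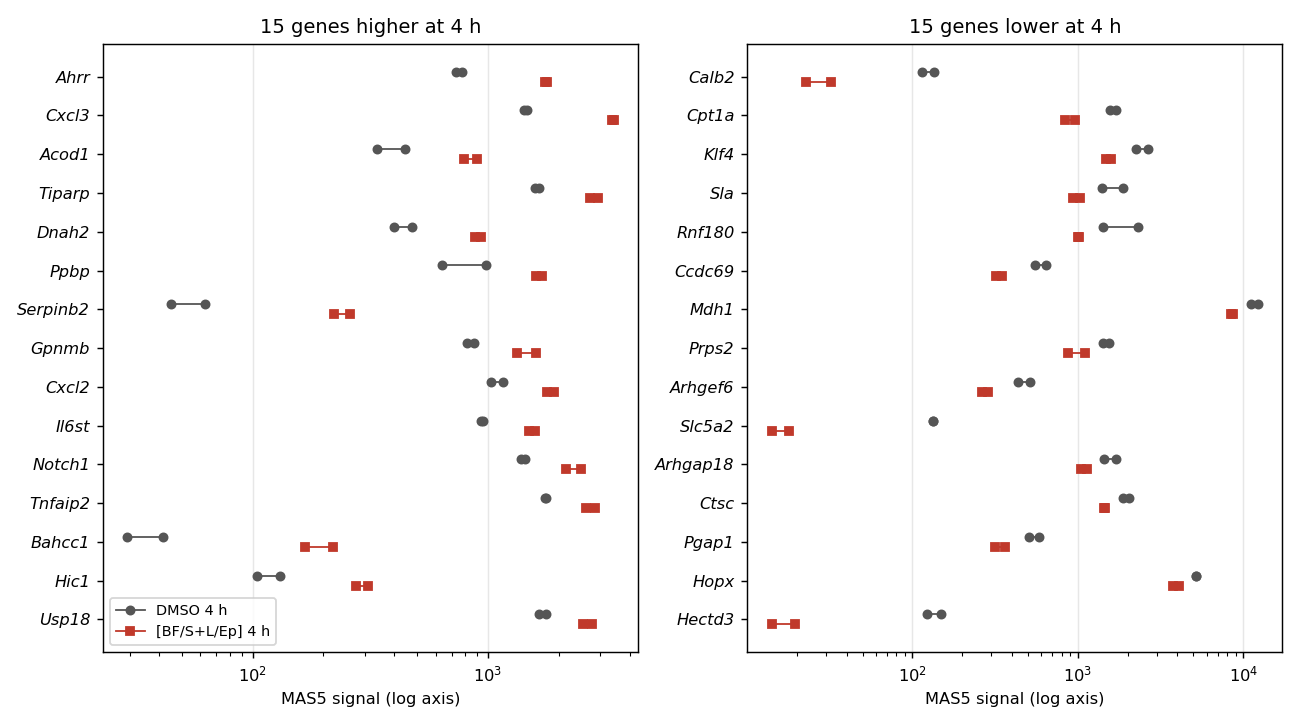
Each row is 1 of the 15 genes with the smallest p on each side at 4 h, and each symbol is the MAS5 signal on 1 array (log axis): grey circles are the 2 DMSO arrays and red squares the 2 [BF/S+L/Ep] arrays, joined by a line. The groups do not overlap in any row because that was a condition for naming; the replicates of Ahrr, at 1745 and 1773 after treatment, lie closer than those of Ppbp with DMSO, at 639 and 980.

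Of the 20 measured matrix proteases and genes of the plasminogen system, 2 were higher with an unadjusted p under 0.05. *Serpinb2*, which encodes plasminogen activator inhibitor 2, read 45.2 and 62.8 with DMSO, both under the reference, and 222 and 260 with [BF/S+L/Ep]. It was at least 2.54-fold higher (adjusted p = 0.116 from limma). *Mmp8*, a collagenase known from neutrophils, read 2609 and 2527 against 3608 and 3753 (log2 fold change 0.52, adjusted p = 0.297).

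The other higher genes came from several systems. *Dnah2*, which encodes an axonemal dynein heavy chain, read 398 and 475 with DMSO and 931 and 883 with [BF/S+L/Ep] (log2 fold change 1.06, standard error 0.15, adjusted p = 0.055), and it was the only 1 of 42 measured genes of actin, tubulin and motility with a value above 1. *Il6st*, the gp130 chain shared by receptors of the IL-6 family, read 950 and 938 against 1497 and 1578, and all 4 of its measured probe sets had the treated arrays above the controls, with log2 fold changes from 0.63 to 1.39. *Notch1*, a cell-fate receptor, read 1438 and 1381 against 2495 and 2156, with 0.72 and 0.46 on its 2 probe sets. *Gpnmb*, a lysosomal glycoprotein of phagocytes, read 814 and 870 against 1323 and 1594 (0.79, adjusted p = 0.116), and its other, much dimmer probe set had 0.015 with overlap. *Clec4e*, the pattern receptor Mincle, read 3796 and 3542 against 5137 and 5444 (0.53, adjusted p = 0.223), while its other probe set had -0.02 with overlapping groups. *Hic1*, a transcriptional repressor, read 104 and 130 against 274 and 309 (1.32, adjusted p = 0.203), and *Bahcc1*, a chromatin reader, was under the reference with DMSO and read 167 and 220 after treatment, at least 2.03-fold higher.

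Immediate early genes and MAP kinase feedback genes went both ways, with 3 of 31 measured genes higher and 2 lower at an unadjusted p under 0.05. *Ier3*, a survival gene induced by NF-κB, read 598 and 600 with DMSO and 903 and 952 with [BF/S+L/Ep] (log2 fold change 0.63, standard error 0.13, adjusted p = 0.372). *Dusp6*, the phosphatase that acts on ERK, read 405 and 463 against 612 and 641 (0.53, adjusted p = 0.928). *Klf4*, a transcription factor of monocyte differentiation and alternative activation, lay on the other side, at 2237 and 2665 against 1582 and 1482 (-0.67, adjusted p = 0.297), and its other probe set had -0.37 with overlap.

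*Klf4* was also 1 of 3 genes of alternative activation, of 17 measured, that were lower with an unadjusted p under 0.05, with 0 higher, and the median of this group was -0.11. *Cd163*, a scavenger receptor of macrophages, read 196 and 198 with DMSO and 68.3 and 120 with [BF/S+L/Ep] (log2 fold change -1.12, adjusted p = 0.969). *Clec10a*, a galactose-type lectin, read 1332 and 1281 against 935 and 1163 (-0.33, adjusted p = 0.997). *Mrc1*, the mannose receptor, read 5095 and 5565 against 5040 and 4420. *Maf*, a transcription factor of macrophages counted with the DC lineage factors, read 287 and 378 against 215 and 232, while *Runx3* of the same list read 609 and 564 against 972 and 774.

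Apart from *Klf4*, the genes with the smallest p on the lower side belonged to no single function. *Calb2*, which encodes calretinin, read 135 and 115 with DMSO and 22.6 and 32.3, under the reference, with [BF/S+L/Ep]. It was at least 1.77-fold lower and missed the threshold (adjusted p = 0.055 from limma). *Cpt1a*, the carnitine transferase that admits fatty acids to mitochondria, depended on the probe set. On the probe set that met the naming rule it read 1556 and 1706 against 959 and 836 (log2 fold change -0.86, adjusted p = 0.182), and on the brightest it read 3433 and 3295 against 2945 and 3315 (-0.11), with overlapping groups. *Sla*, an adaptor that dampens antigen receptor signalling, read 1402 and 1869 against 940 and 1035. Its dimmer probe sets had -0.15 with overlap, and -0.43 and -0.79 without. *Ctsc*, which encodes the protease that activates granule serine proteases, read 2035 and 1879 against 1435 and 1461 (-0.43, adjusted p = 0.779). Its brightest probe set read 26651 and 26075 against 23911 and 25269 (-0.10), and its dimmest had -0.40. *Mdh1*, the cytosolic malate dehydrogenase, read 11168 and 12305 against 8672 and 8493 (-0.45), while its 3 other measured probe sets lay between -0.18 and 0.13. *Prps2*, *Arhgap18*, *Arhgef6*, *Pgap1*, *Rnf180*, *Ccdc69* and *Hopx* had log2 fold changes between -0.84 and -0.40 with adjusted p from 0.538 to 0.837. Other measured probe sets of these genes differed. For *Ccdc69*, 1 read 155 and 178 against 208 and 228, on the other side of 0 without overlap (0.40). The far brighter probe set of *Arhgef6* read 4464 and 3950 against 4032 and 3563 (-0.15), with overlapping groups. *Hopx* had -0.04 on its other probe set, *Arhgap18* -0.13, and *Prps2* -0.09 and -0.10, all with overlap. *Slc5a2* and *Hectd3* were under the reference after treatment and at least 1.88-fold and 1.91-fold lower. For both, another measured probe set of the same gene had a log2 fold change on the other side of 0, of 0.18 and 0.09.

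Genes of DC maturation and antigen presentation had values close to 0 for the most part. *Itgax*, the gene of CD11c, read 18420 and 19541 with DMSO and 19031 and 18834 with [BF/S+L/Ep], and its log2 fold change of 0.00 had a 95% interval from -0.22 to 0.22. *Cd80* read 396 and 402 against 395 and 410 (0.01, interval -0.42 to 0.45), with 0.27 and -0.05 on its 2 dimmer probe sets, and *Cd40* read 625 and 595 against 591 and 732 (0.11, interval -0.25 to 0.46). *H2-Ab1*, an MHC class II chain, read 40311 and 38952 against 44123 and 40315 (0.09, interval -0.15 to 0.33). *Ccr7* read 15945 and 12615 against 13249 and 16456 (0.06, interval -0.27 to 0.38). *Cd86* had a larger value than these, at 3385 and 2890 against 3801 and 4576 (0.41, interval 0.13 to 0.70, adjusted p = 0.969 from limma). Its treated arrays were above the controls on both of its probe sets. The 95% intervals are for single probe sets, with no adjustment for their number. That of *Cd86* overlaps those of *Cd40* and *Cd80*, and a difference between these genes was not tested. *Cd274*, the gene of PD-L1, read 2312 and 2416 against 2831 and 3116 (0.33, adjusted p = 0.964). *Cd86* and *Cd274* were the 2 of 20 measured genes of this list with an unadjusted p under 0.05. Of 17 measured chemoattractant receptors, only *Ccr1*, at 4847 and 4618 against 5420 and 6542, had an unadjusted p under 0.05 (its other probe set had -0.11 with overlap), and *Ccr4* was under the reference on all 4 arrays.

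Housekeeping and stress programs lay near 0. The 26 measured cytosolic ribosomal protein genes had a median log2 fold change of -0.04, the 40 genes of the respiratory chain -0.02, the 29 genes of cholesterol and fatty acid synthesis 0.01, the 32 genes of the unfolded protein response and amino acid stress 0.02, the 18 heat shock chaperones -0.02 and the 16 genes of MHC class I and the immunoproteasome 0.01. In each of these 6 groups 0 genes had an unadjusted p under 0.05 in either direction, and 0 were called by limma. Of 31 genes of glycolysis and hypoxia, 1 was lower at that level, *Hk2*, at 1904 and 1848 with DMSO and 1530 and 1531 with [BF/S+L/Ep]. Of 45 genes of the cell cycle and DNA replication, 1 was higher, *Wdhd1*, at 156 and 150 against 320 and 304 (log2 fold change 1.03, adjusted p = 0.864). The medians ran from -0.11 to 0.07 in the lists of MHC class II (15 genes), adhesion (27), actin and motility (42), eicosanoids (13), LXR and lipid handling (20), fatty acid oxidation (25), BCL2 and p53 (24), Toll-like receptors and lectins (24), inflammasome (14), DC transcription factors (22), GM-CSF and STAT5 (21), circadian clock (14), lysosome (34) and metallothioneins (7). In each of these 14 lists between 0 and 4 genes were higher and between 0 and 2 lower with an unadjusted p under 0.05.

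**Figure D3:**
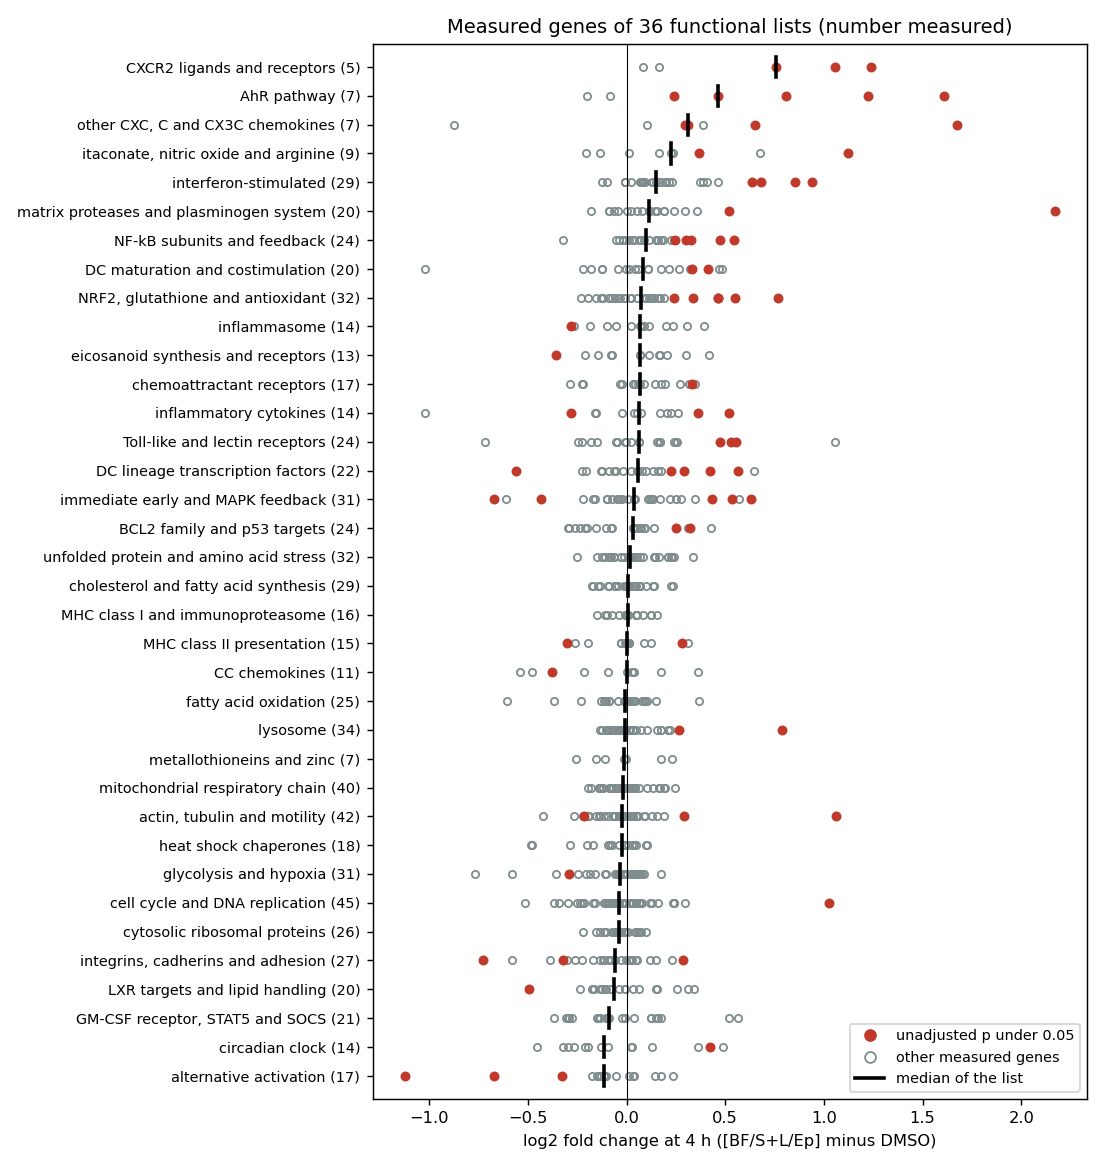
Each row is 1 functional list, with the number of measured genes in parentheses, and each circle is the log2 fold change of 1 gene at 4 h (horizontal axis); red circles have an unadjusted p under 0.05 and black bars are the medians. The CXCR2 and AhR lists have the highest medians, 0.76 and 0.46, and the large housekeeping lists sit close to 0.

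The genes that the study names for 4 h were chosen by its authors on these same arrays, so their direction here is not independent evidence. Of 19 named as higher, 13 had a measured brightest probe set, 8 of these had a positive log2 fold change and 6 were higher with an unadjusted p under 0.05 (*Ahrr*, *Acod1*, *Dnah2*, *Ppbp*, *Serpinb2* and *Wdhd1*). Of 10 named as lower, 7 had a measured brightest probe set, and all 7 had a negative value on it. On these brightest probe sets 0 had an unadjusted p under 0.05. The study gives no probe sets, so its ratios may come from others of the same genes. In some of the named genes the probe sets differed. *Ikbkg*, a subunit of the IκB kinase complex, had 1.02 on the probe set that read 279 and 270 with DMSO and 565 and 553 with [BF/S+L/Ep], and 0.06 on its brightest, which read 734 and 898 against 829 and 866. *Atad1* had -1.06 on a probe set that read 142 and 146 against 68.0 and 70.1 (unadjusted p = 0.0343 from limma), and -0.11 on its brightest. On a probe set other than its brightest, *St8sia6* read 112 and 101 against 46.5 and 50.4, under the reference (unadjusted p = 0.0114, adjusted p = 0.969 from limma). *Cdh10* was under the reference on all 4 arrays.

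A rule of size gave a different view from the test. At 4 h, 107 probe sets (0.238%) were at least 2-fold higher and 45 (0.0999%) at least 2-fold lower in the ratio of mean signals and in both comparisons of same-numbered arrays, and exceeded the reference on each array of the group with more signal. In 97 of the 107 and 37 of the 45, the lower group was under the reference on both arrays. The reference was itself lower on the treated arrays, at 74.8 and 66.7, than on the DMSO arrays, at 91.5 and 97.3. With 1 reference of 81.6 for all 4 arrays, an alternative chosen after seeing the data, the rule gave 75 higher and 77 lower, so the surplus of higher probe sets by size depended on the reference. The 15 named genes on either side were the same with this reference. RNA quality did not differ in the same way, with a ratio of 3′ to 5′ signal of *Gapdh* between 0.70 and 0.76 on all 4 arrays.

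The label of the cells was checked against markers. Of 11 markers of conventional DCs with a probe set, 9 were above the reference on all 4 arrays, and their summed signal was 129941 to 132633 with DMSO and 130770 to 138435 with [BF/S+L/Ep]. Macrophage markers were above it in 8 of 9, with sums of 60812 to 62287 and 56744 to 59985. Platelet markers, of which *Ppbp* and *Pf4* are members, summed to 12892 to 15198 and 14569 to 18884, with 5 of 7 above the reference on every array. Most of each platelet sum was *Pf4*, a chemokine of macrophages too, at 11816 and 13718 with DMSO and 16608 and 12270 with [BF/S+L/Ep]. The platelet sum therefore mainly restates that gene. Neutrophil markers summed to 3682 to 3888 and 3543 to 4398, with 4 of 9 above the reference on every array (*S100a8*, *S100a9*, *Ngp* and *Csf3r*), and *Camp*, *Elane* and *Ltf* were under it throughout. Of 8 T and NK cell markers with a probe set, 7 were also under it on all 4 arrays (*Cd3e*, *Cd3g*, *Cd4*, *Nkg7*, *Gzma*, *Ncr1* and *Thy1*). The other, *Cd8a*, was above it on some of these arrays but not on every array. Of 6 B cell markers, *Cd79a*, *Cd79b* and *Ms4a1* were under it throughout and 2 were above it on every array, *Blnk*, which read 5585 to 6352, and *Ighm*, which read 210 to 287. The list summed to 6086 to 6803 with DMSO and 6605 to 6641 with [BF/S+L/Ep]. Erythroid and stromal lists had 0 markers above the reference on every array, the mast cell and eosinophil lists 1 each, and the plasmacytoid DC and osteoclast lists 4 of 6 each.

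The arrays of 12 h are different samples with their own controls. Of the 15 genes named as higher at 4 h, 14 had a positive log2 fold change at 12 h and 14 had both treated arrays above both controls there, against 16.6% of all measured genes. Of the 15 named as lower, 13 had a negative value at 12 h and 10 had both treated arrays below both controls, against 22.2%. The p that chose these genes took its spread from the arrays of both times. That choice favoured genes with close replicates at 12 h, where overlap is less likely. The shares of all measured genes are therefore not a matched background for the counts without overlap. *Ahrr* read 939 and 1012 with DMSO and 1917 and 1596 with [BF/S+L/Ep] at 12 h (log2 fold change 0.84, adjusted p = 0.0681), and *Tiparp* read 1395 and 1276 against 1789 and 1832 (0.44, adjusted p = 0.427). *Cxcl3* read 6333 and 4752 against 10316 and 8535 (0.77, adjusted p = 0.113). *Dnah2*, *Ppbp* and *Cxcl2* had log2 fold changes of 1.64, 1.47 and 0.92 at 12 h and passed the test there (adjusted p = 0.00125, 0.00853 and 0.0276 from limma), as did 0.02% of all probe sets. *Calb2* and *Bahcc1* had opposite signs at the 2 times, -2.21 and 0.48 for *Calb2* and 2.45 and -0.52 for *Bahcc1*. In the test of the difference between the 2 responses, 0% of the probe sets passed in limma (1647 had an unadjusted p under 0.05), and the smallest p of these genes was that of *Calb2* (adjusted p = 0.756). 

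**Figure D4:**
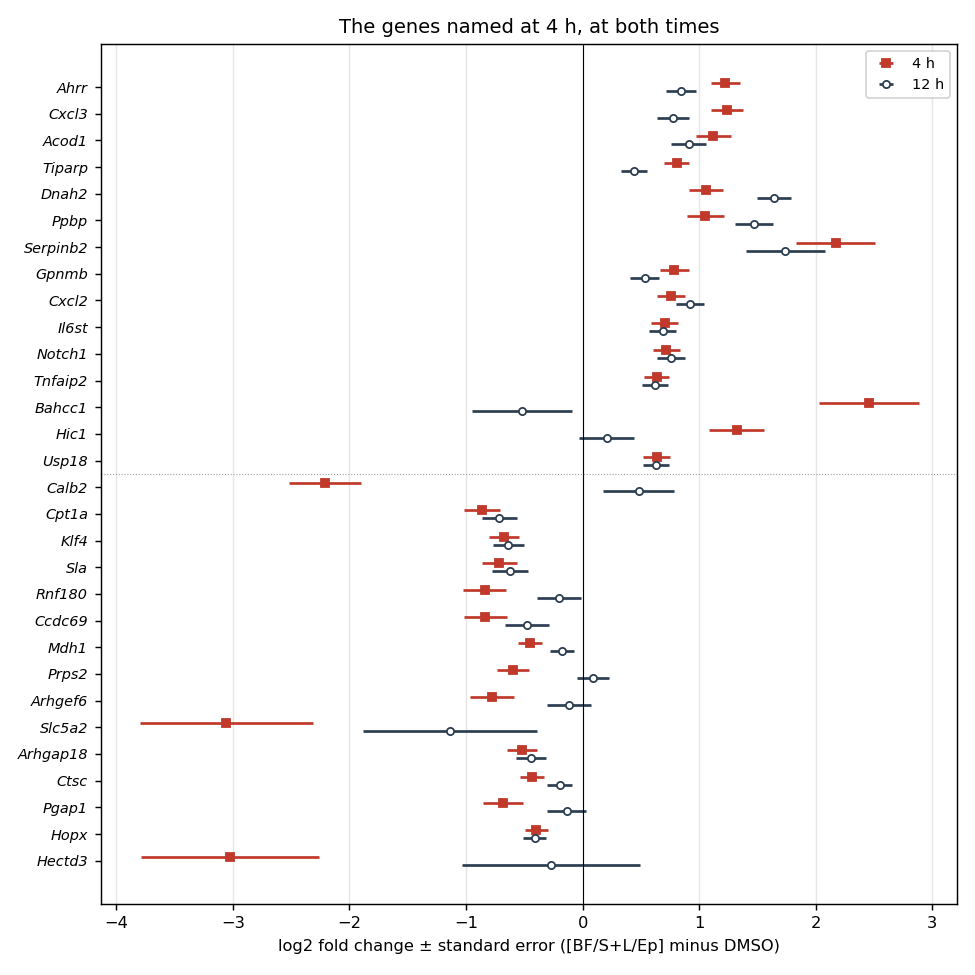
Each row is 1 of the 30 genes named at 4 h, with the 15 higher genes above the dotted line and the 15 lower genes under it; the horizontal axis is the log2 fold change, [BF/S+L/Ep] minus DMSO, with its standard error from the model. Red squares are 4 h and open circles 12 h, and all but Bahcc1 of the higher genes stay right of 0 at 12 h, while Calb2 and Prps2 of the lower genes do not stay left of it.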

How the data were processed

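The cells, treatments and times are those described in the report, with 2 arrays of each of 4 groups and groups taken from the labels. The intensity values used are the ones the authors deposited, MAS5 signals on a linear scale (version not given in the sources used here), scaled by the authors to 1 trimmed mean per array, with no background subtraction or scaling added here. The study speaks of the 2 arrays of a group as replicates of biological samples and of cell culture. Whether they came from separate mice is not stated in the sources used here, so p-values measure the spread between these arrays. Their number limits the precision.

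Of 45101 probe sets, 64 control probe sets were left out, and log2 of the signal of the other 45037 was tested with limma 3.58.1 in R 4.3.3 (group means of 8 arrays, contrast at 4 h, eBayes with an intensity trend, Benjamini-Hochberg adjustment over all probe sets, threshold 0.05), after a check on data with known changes. The model had 4 residual degrees of freedom and a prior of 8.83. Symbols came from the platform annotation, updated through RefSeq. In all, 34945 probe sets carried 1 symbol, 932 several and 9160 none. Of 988 entries in 38 functional and 12 marker lists, 891 matched a probe set, and each gene stands for its brightest. A group was under the background reference when both its arrays were, and a fold against it is given as a bound, with each dim array at the higher of its reference and its own signal. The genes named are those called, the 15 of smallest p on each side that carried 1 symbol, did not overlap and were above the reference in the higher group, the 4 of smallest p in each list, and the genes the study names for 4 h with the surface markers it tested; other list members given beside them (such as *Cxcl1*, *Ahr*, *Nfkbia*, *Tnf* and *Il6*) were chosen after their values were seen. The rule, the lists and the comparison were chosen with earlier results of these data known.

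Alternatives were quantile normalization, median centring, an offset of 50, filters on low signal, no trend, robust moderation, a replicate block, only the arrays of 4 h, other rules of size, and each array left out.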

Additional observations from a re-analysis of the deposited data

How the results depend on the processing

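The number of probe sets called at 4 h was 2 in the main model, and it was also 2 with quantile normalization, median centring, robust moderation, both filters on low signal and each 12 h array left out. It was 1 with an offset of 50 (*Ahrr*), 1 with only the 4 arrays of 4 h (*Cxcl3*) and 0 without the intensity trend. With 1 array of 4 h left out it ranged from 0 to 3. The 1 call without DMSO 4 h replicate 2 was *Ppbp*, and the 3 calls without [BF/S+L/Ep] 4 h replicate 2 were the lower genes *Pam*, *Igfbp4* and *Ddx39a*, named for this count alone. *Igfbp4* read 2446 and 2443 with DMSO but 504 and 1862 with [BF/S+L/Ep], so that call rests on 1 treated array. The count of probe sets whose response differed between the times was 0 in every setting except 1 of the leave-one-out settings, which gave 1, again *Igfbp4*, so its range was 0 to 1. With a replicate block within each time the count at 4 h was 4, with *Acod1* (adjusted p = 0.0245) and *Dnah2* (0.0356) added. Deviations of same-numbered arrays correlated at -0.05 at 4 h and 0.15 at 12 h over measured probe sets. Whether same-numbered arrays came from the same experiment is not stated in the labels, and with 2 arrays a group these values cannot decide it.

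The count of 152 probe sets changed 2-fold was 3201 without the background filter, 101 with signal above the reference on at least 4 of 8 arrays, 406 on the ratio of mean signals alone, 577 at 1.5-fold and 53 at 3-fold. It ranged from 765 to 889 with 1 array left out, where a single same-numbered ratio remains. It was 111 with all 4 ratios, 165 after quantile normalization (127 higher, 38 lower) and 160 after median centring (122 higher, 38 lower). Genes close to 0 changed sign in 11 cases. With 1 array left out, the log2 fold change ranged from -0.053 to 0.383 for *Pf4*, from -0.053 to 0.218 for *Cxcl1*, from -0.045 to 0.262 for *Cd40*, from -0.014 to 0.040 for *Cd80*, from -0.046 to 0.040 for *Itgax*, from -0.111 to 0.227 for *Ccr7* and from -0.084 to 0.207 for *Ikbkg*. The sign turned without [BF/S+L/Ep] 4 h replicate 1 for *Pf4* and *Cxcl1*, without [BF/S+L/Ep] 4 h replicate 2 for *Cd40*, *Cd80*, *Itgax* (0.004) and *Ccr7* (-0.098), without DMSO 4 h replicate 2 for *Itgax* and *Ccr7*, and without DMSO 4 h replicate 1 for *Ikbkg*. It also turned for *Itgax* with quantile normalization (0.038) and median centring (0.052). Of 304 alternative list medians, 240 moved by less than the spread between arrays and 64 by more. Signals under the reference limit what can be read of genes such as *Cyp1a1* and *Cxcl5*.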
